A study of Mus musculus with 28 samples.

Results

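Expression of 10 oxidative stress and metal response genes was examined in AB1-HA mesothelioma tumors treated with chemotherapy, immune checkpoint blockade (ICB) or both. The genes were taken by symbol from the gene column of both deposited count tables, where 10 of 55341 rows carried their names, and all 10 passed the low-count filter in every fit. AB1-HA is a mouse mesothelioma line that carries the influenza hemagglutinin antigen, and it was grown under the skin of female BALB/c.AusBP mice aged 8 to 10 weeks, as the study's methods give. Bulk RNA from 28 whole tumors, each from its own mouse, was sequenced and compared between 6 groups, all harvested 7 days after the start of treatment. 5-FU was given into the tail vein and the other treatments intraperitoneally. The 4 PBS tumors received PBS only. The 5 ICB tumors received anti-CTLA-4 (100 μg) with anti-PD-L1 (100 μg), followed by 2 more doses of anti-PD-L1 at intervals of 2 days. The 5 tumors of the 5-FU group received 5-fluorouracil at 75 mg/kg, an antimetabolite that blocks thymidylate synthesis. The 4 cisplatin tumors received 6 mg/kg of cisplatin, a platinum compound that crosslinks DNA. The combinations, 5-FU+ICB and cisplatin+ICB, were given to 5 mice each. All tumors came from a single transplanted line, so the groups model treatment of 1 tumor in 1 mouse strain.

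NRF2, encoded by Nfe2l2, is the transcription factor that raises antioxidant and detoxifying genes when cells meet oxidants or electrophiles. In resting cells KEAP1 binds NRF2 and hands it to a CUL3 and RBX1 ubiquitin ligase, while BACH1 occupies many of the same DNA sites as a repressor that haem can remove. The members fall into 3 kinds. Hmox1, which breaks down haem, and Nqo1, a quinone reductase, are classical NRF2 targets. Slc7a11 (the cystine importer xCT), Gclc and Gclm (the catalytic and modifier subunits of glutamate-cysteine ligase) and Gsr (glutathione reductase) supply reduced glutathione, while Txnrd1 (thioredoxin reductase) and Srxn1 (sulfiredoxin, which repairs overoxidized peroxiredoxins) serve the thioredoxin branch. Mt1 and Mt2 encode metallothioneins, small cysteine-rich proteins that bind zinc and copper and are induced by metals through MTF1, by glucocorticoids and in inflammation. Hmox1 is also well known in tissue macrophages that take up red cells.

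The 10 genes lay on 5 chromosomes of GRCm38 in the GENCODE annotation. Mt2 (chr8:94172664-94173568) and Mt1 (chr8:94179082-94180327) were neighbours on the plus strand, 5513 bases apart. Hmox1 (chr8:75093621-75100589, plus), Nqo1 (chr8:107388225-107403206, minus) and Gsr (chr8:33652523-33698163, plus) lay on the same chromosome. Slc7a11 (chr3:49892526-50443614, minus), Gclm (chr3:122245557-122270732, plus), Srxn1 (chr2:152105516-152111376, plus), Gclc (chr9:77754535-77794485, plus) and Txnrd1 (chr10:82833951-82897712, plus) were spread over the other chromosomes.

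The RefSeq promoter table (GRCm38.p6) matched 7 members, and Hmox1, Gclc and Gsr are named only. The 250 bases before each listed start were searched on both strands for an antioxidant response element core (TGACNNNGC), the AP-1 site TGAGTCA and a metal response element core (TGCACNC or TGCGCNC). Among 32851 promoters of this length, 10.2% held the antioxidant core, 4.46% the AP-1 site and 21.4% the metal core. Mt2 held 3 metal cores, as 1.26% of all promoters did with at least 3, and 1 antioxidant core whose letters TGACTCAGC contain the AP-1 site on the opposite strand. Mt1 held 1 metal core and neither of the other motifs in this window. The window ends inside the annotated Mt1 gene, which has 3 transcripts, and bases after the listed start were not searched. The Mt1 and Mt2 windows are therefore not compared as whole promoters. Srxn1 held 2 AP-1 sites, 1 metal core and no antioxidant core. Gclm held 1 antioxidant core and 2 metal cores, the first of which shares bases with the antioxidant core, and Txnrd1 had 1 antioxidant core before the second of its 3 listed starts. Neither Nqo1 nor Slc7a11 held any of the 3 motifs in this window. The metallothionein pair is printed because Mt2 and Mt1 differed in the results that follow, and Srxn1 and Gclm as the other members with motifs near a single listed start. Capitals mark metal and antioxidant cores in Mt2, the metal core in Mt1, AP-1 sites in Srxn1 and the antioxidant core in Gclm. All run 5′ to 3′ on the plus strand of GRCm38.p6, from chr8:94172368-94172617 for Mt2, chr8:94178839-94179088 for Mt1, chr2:152105274-152105523 for Srxn1 and chr3:122245307-122245556 for Gclm. A match is a description of the letters and not of a bound site.
Mt2: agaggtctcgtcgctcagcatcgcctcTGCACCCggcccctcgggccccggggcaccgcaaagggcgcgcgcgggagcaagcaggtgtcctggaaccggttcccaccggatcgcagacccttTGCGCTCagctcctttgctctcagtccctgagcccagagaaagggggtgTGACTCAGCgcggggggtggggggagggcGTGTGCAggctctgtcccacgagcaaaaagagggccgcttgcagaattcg
Mt1: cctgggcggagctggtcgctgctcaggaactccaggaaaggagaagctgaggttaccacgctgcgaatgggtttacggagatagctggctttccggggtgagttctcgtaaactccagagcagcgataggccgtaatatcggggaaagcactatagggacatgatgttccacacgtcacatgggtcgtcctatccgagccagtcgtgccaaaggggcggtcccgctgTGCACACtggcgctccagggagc
Srxn1: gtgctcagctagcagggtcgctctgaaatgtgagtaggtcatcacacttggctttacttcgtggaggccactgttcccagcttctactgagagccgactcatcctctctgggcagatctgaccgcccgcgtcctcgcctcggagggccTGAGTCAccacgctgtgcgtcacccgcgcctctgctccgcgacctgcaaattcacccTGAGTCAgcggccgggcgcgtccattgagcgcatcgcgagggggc
Gclm: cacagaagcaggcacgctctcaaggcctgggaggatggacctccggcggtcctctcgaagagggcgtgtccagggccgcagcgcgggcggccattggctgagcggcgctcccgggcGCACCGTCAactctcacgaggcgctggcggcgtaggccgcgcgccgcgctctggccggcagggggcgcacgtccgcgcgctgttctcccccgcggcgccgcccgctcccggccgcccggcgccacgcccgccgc

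Libraries held 23541733 to 33950805 estimated counts (median 28797552), so 3 counts corresponded to 0.0822 to 0.159 CPM, the counts scaled to a fixed library total. Every member lay above that level in all 28 tumors, and the lowest value was 52 counts, for Nqo1. CPM were scaled with TMM factors, which adjust library totals for composition, and are not corrected for gene length, so levels are compared between tumors and not between genes. Mesothelin (Msln), carried by AB1 tumors, was detected in all 28 tumors with a median of 142 CPM, whereas the mesothelial markers Wt1 (at most 2.78 CPM) and Upk3b (0 counts in 23 tumors) were nearly absent. Libraries that stood apart were 5-FU+ICB replicate 5, with 0.50 CPM of Msln (up to 167 CPM in its group) and 5314 summed CPM of 7 skeletal muscle markers, and cisplatin+ICB replicate 1, with the highest Msln (654 CPM), the lowest fibroblast marker sum (2454 CPM) and the smallest TMM factor (0.685). The B and plasma cell marker sum of 5-FU+ICB replicate 5 was 1446 CPM (group median 29.3). Single marker lists were also far from the group in ICB replicate 2, with 495 CPM of skin keratinocyte markers (group median 1.53), and in ICB replicate 3, with 3623 CPM of muscle markers (group median 59.6).

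**Figure D1:**
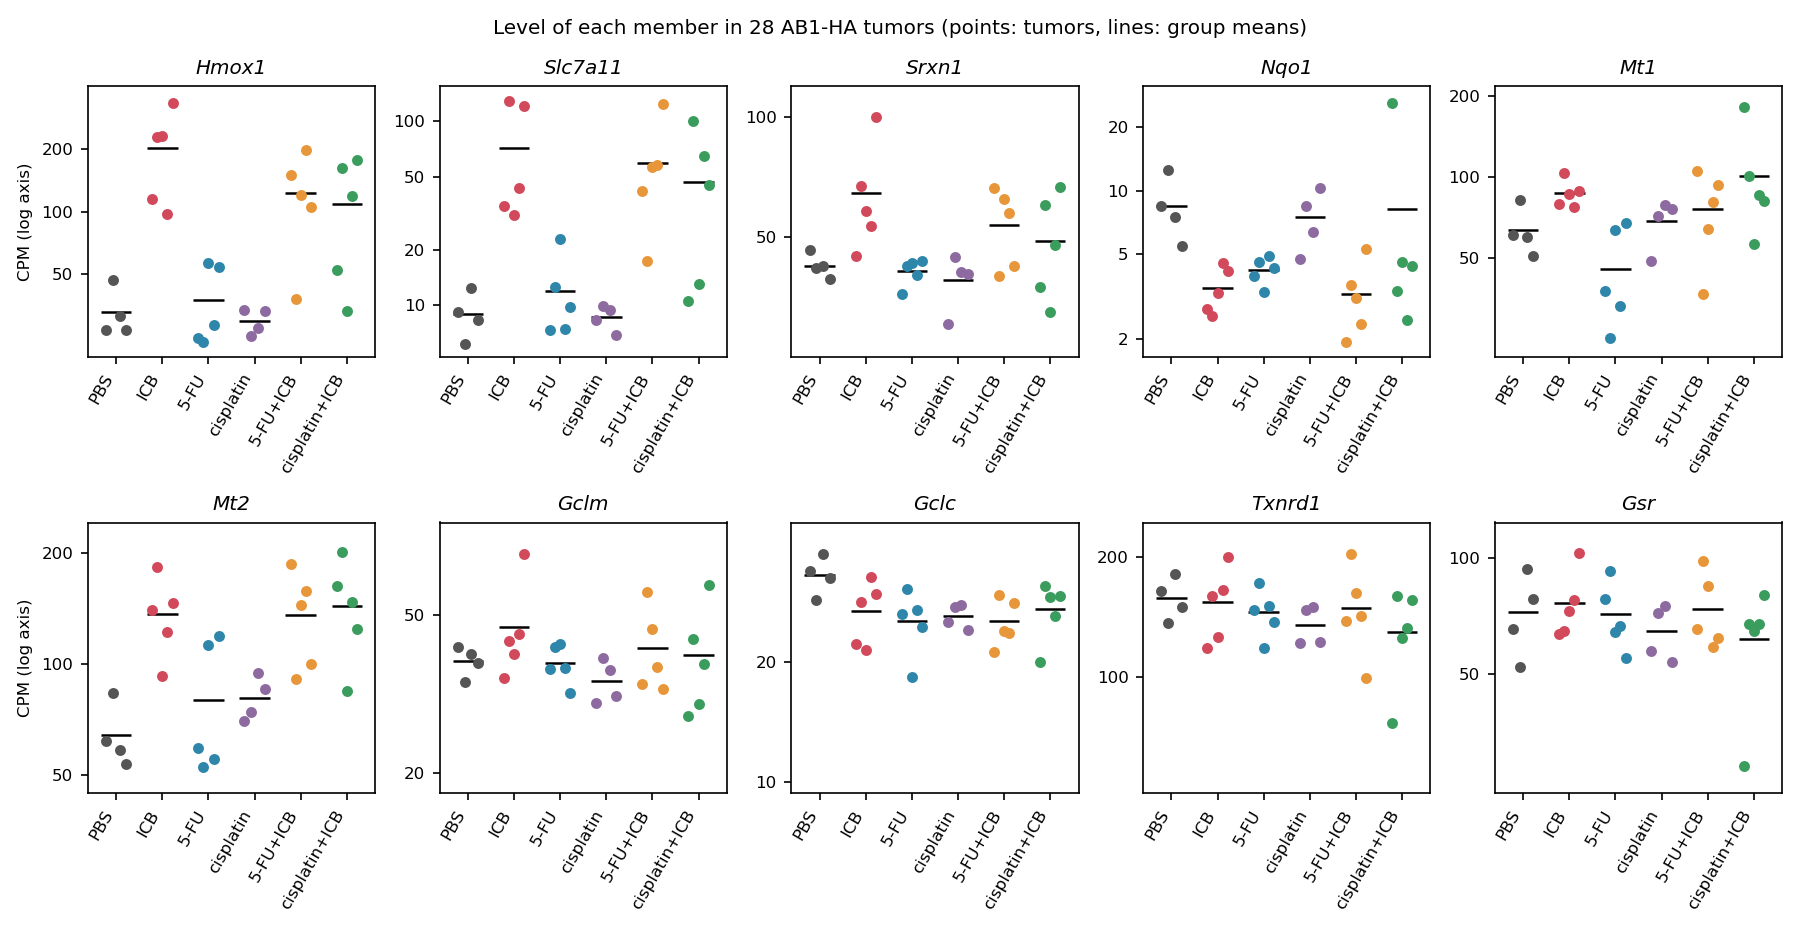
CPM of the 10 members (log axis) in each of the 28 tumors, grouped by treatment on the horizontal axis, with points for tumors and lines for group means. The 5 ICB tumors lie above all 4 PBS tumors for Hmox1, Slc7a11 and Mt2 and below them for Nqo1, while Gclm, Gclc, Txnrd1 and Gsr overlap between these groups.

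The first comparison asked how checkpoint blockade alone changed the members. Hmox1, Slc7a11, Mt2 and Srxn1 rose in the ICB tumors, and Nqo1 fell, so the members did not move in 1 direction in bulk RNA. The increases were 8.19-fold for Slc7a11, 6.11-fold for Hmox1, 2.16-fold for Mt2 and 1.55-fold for Srxn1, whereas Nqo1 was 2.45-fold lower. A gene was called when its adjusted p was under 0.05 and its log2 fold change beyond 0.5 in either direction. By this rule 5 of 10 members were called in ICB against PBS, beside 37.8% of all 17916 genes tested, so the count itself is not particular to these genes. The median log2 fold change was 0.39 over the members and -0.03 over all genes.

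Hmox1 measured 27.0, 46.8, 31.4 and 26.9 CPM in the PBS tumors and 115, 229, 229, 97.3 and 333 CPM in the ICB tumors. Every ICB tumor was higher than every PBS tumor, and ICB replicate 5 was the highest of all 28 tumors. The log2 fold change was 2.61 ± 0.47 (SE; edgeR adjusted p = 0.00074). Slc7a11 measured 9.17, 6.2, 12.4 and 8.34 CPM in PBS and 34.6, 129, 30.9, 43.6 and 120 CPM in ICB. The groups did not overlap, and ICB replicates 2 and 5 stood well above the other three. Its log2 fold change was 3.03 ± 0.58 (adjusted p = 0.001). Leaving out each of the 9 tumors in turn, both genes were called every time, with log2 fold changes of 2.37 to 2.87 for Hmox1 and 2.74 to 3.23 for Slc7a11.

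Mt2 measured 61.8, 83.6, 58.5 and 53.5 CPM in PBS and 140, 184, 92.9, 122 and 147 CPM in ICB, again without overlap. Its log2 fold change was 1.11 ± 0.30 (edgeR adjusted p = 0.0081). Mt1, the neighbouring metallothionein, overlapped between groups, with 60.7, 82.1, 59.96 and 50.9 CPM in PBS and 79.7, 103, 86.4, 77.4 and 88.5 CPM in ICB. Its log2 fold change of 0.47 ± 0.30 was not called (adjusted p = 0.218), but fitted with these 2 groups alone it was 0.50 and called (adjusted p = 0.044). In the annotation, 58.1% of the 31-base words of Mt2 also occur in other genes, nearly all of them in Gm45774, an antisense gene across it, whereas Mt1 shares none. Gm45774 itself was counted at 0.70 to 4.40 CPM, at most 4.49% of its sum with Mt2 in any tumor. Of the other members, Gclm (6.82%), Slc7a11 (4.27%) and Srxn1 (0.738%) shared few such words and the rest none.

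Srxn1 ranged from 39.0 to 46.2 CPM in PBS and measured 44.8, 66.9, 57.9, 53.2 and 99.7 CPM in ICB. Only ICB replicate 1 fell inside the PBS range, and replicate 5 was the highest of all 28 tumors. The log2 fold change was 0.63 ± 0.20 (edgeR adjusted p = 0.018), and without ICB replicate 5 it was 0.43 and no longer called (adjusted p = 0.058). The call was also lost without PBS replicate 4 (adjusted p = 0.051), and in the cisplatin count table, which holds the same PBS and ICB tumors beside the cisplatin groups (0.62, adjusted p = 0.062).

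Nqo1 measured 8.44, 12.5, 7.52 and 5.48 CPM in PBS and 2.76, 2.57, 3.28, 4.54 and 4.16 CPM in ICB. All ICB tumors were below all PBS tumors. Nqo1 fell by 1.29 on the log2 scale (SE 0.29, edgeR adjusted p = 0.0028) and was called without any 1 of the 9 tumors. In the cisplatin count table its value was -1.28 and not called (adjusted p = 0.088). The remaining members of the glutathione and thioredoxin branches were not called. Their log2 fold changes were 0.31 for Gclm, -0.27 for Gclc, 0.11 for Gsr and -0.01 for Txnrd1, with standard errors of 0.15 to 0.18 and adjusted p of 0.158 to 0.960. Gclm reached 71.3 CPM in ICB replicate 5 and 34.8 to 44.9 CPM in the other ICB tumors. No overlap between groups was seen for 4 of 10 members, against 37.4% of all genes.

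**Figure D2:**
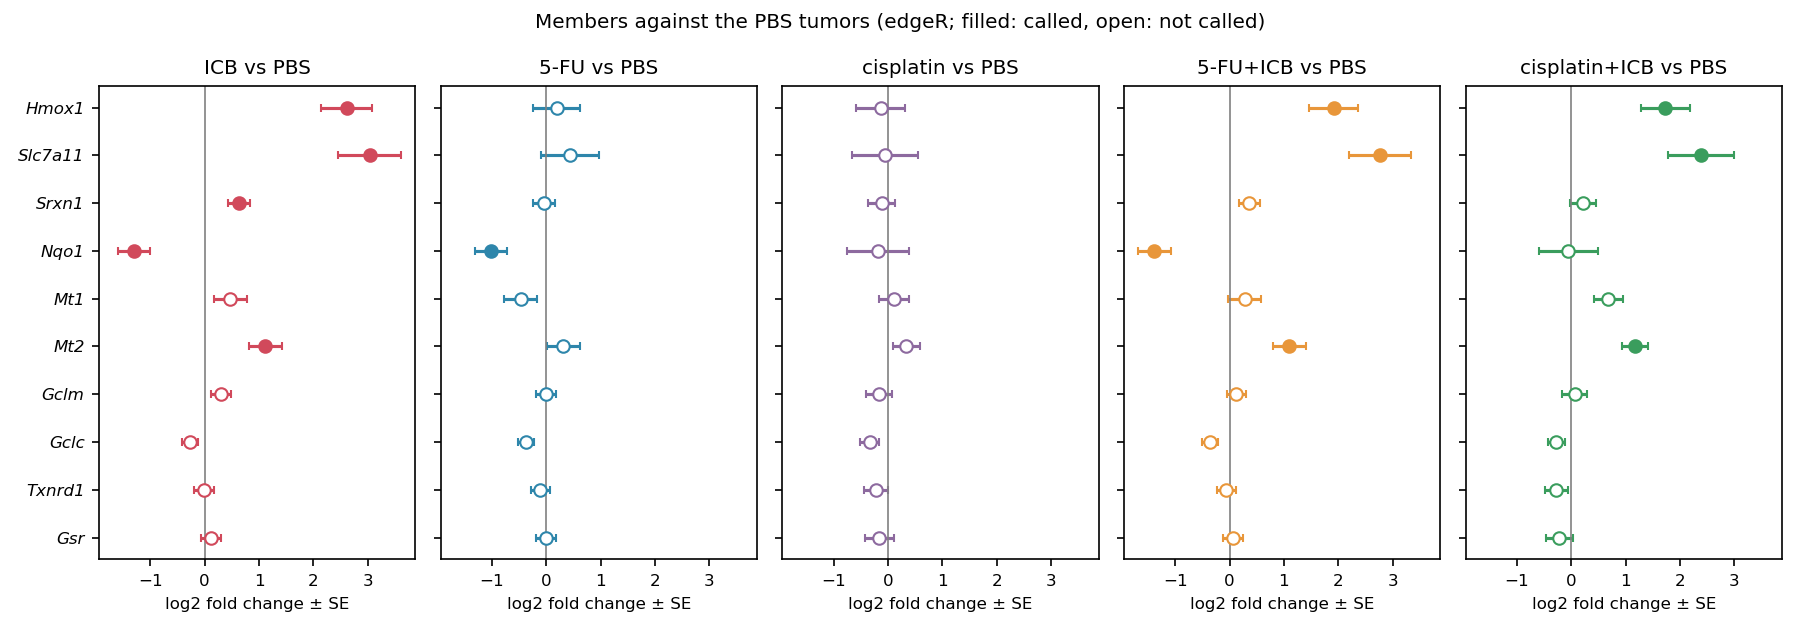
Log2 fold change of each member against the 4 PBS tumors (horizontal axis, with SE as bars) for the 5 treatments, with filled points for called genes. Hmox1, Slc7a11 and Mt2 are called in all 3 groups that received ICB, Nqo1 in ICB, 5-FU and 5-FU+ICB, and no member in cisplatin alone.

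Immune and endothelial cell markers moved with these changes. The sum of 9 macrophage markers was 1716 to 2512 CPM in PBS and 3751 to 10063 CPM in ICB, and 9 of 9 were called higher, and the defining markers Adgre1, Csf1r and C1qa were at 54.3 CPM or more in all tumors. The pan-leukocyte gene Ptprc (CD45) measured 75.0 to 105 CPM in PBS and 245 to 443 CPM in ICB, with a log2 fold change of 2.00 (edgeR adjusted p = 0.0023). The sum of 7 neutrophil markers was 9.32 to 18.6 CPM in PBS and 60.5 to 168 CPM in ICB, with 3 of 6 tested called higher and Ly6g at most 0.186 CPM in every tumor. T and NK cell markers summed to 27.4 to 41.5 CPM in PBS and 137 to 482 CPM in ICB (4 of 6 called higher). Endothelial markers summed to 69.5 to 130 CPM in PBS and 134 to 272 CPM in ICB, with 2 of 5 called higher. Msln lay at 271 to 358 CPM in PBS and 52.0 to 217 CPM in ICB and was not called, and of 6 mesothelial and mesothelioma markers tested, 3 were positive and 3 negative, with Wt1 called higher and 0 called lower. In bulk tumors, fewer cells of a type and less RNA per cell cannot be told apart. Over the 28 tumors, log2 Hmox1 correlated with the mean log2 level of macrophage markers at r = 0.86 and with Ptprc at r = 0.87, and within groups, after subtracting group means, at r = 0.81 and 0.79. Its values with neutrophil markers (r = 0.74, within groups 0.83) and with T and NK cell markers (r = 0.81, within groups 0.80) were alike in size, so no single cell type is singled out. Slc7a11 correlated with Ptprc at r = 0.84, with T and NK cell markers at r = 0.78, with macrophage markers at r = 0.75 and with neutrophil markers at r = 0.63 (within groups 0.66, 0.64, 0.50 and 0.54), which likewise singles out no cell type. Mt2 correlated with neutrophil markers at r = 0.78, with Ptprc at r = 0.69, with macrophage markers at r = 0.63 and with T and NK cell markers at r = 0.61. Within groups these values were 0.76, 0.43, 0.46 and 0.42. Nqo1 ran opposite to macrophage markers (r = -0.72, within groups -0.52), T and NK cell markers (r = -0.70, within groups -0.45) and Ptprc (r = -0.63, within groups -0.34). Within groups it also ran opposite to fibroblast markers (r = -0.77). Without cisplatin+ICB replicate 1, which held the highest Nqo1 and the lowest fibroblast sum, the within-group values for Nqo1 were -0.38 with macrophage and -0.58 with fibroblast markers. Without that tumor and 5-FU+ICB replicate 5, a setting added after the data were seen, Hmox1 correlated with macrophage markers at r = 0.87 and with Ptprc at r = 0.90. In the same setting Slc7a11 correlated with Ptprc at r = 0.81, and Mt2 with neutrophil markers at r = 0.78 and with Ptprc at r = 0.82. These correlations are descriptions over tumors that share treatment and library composition, and the part of these cells in the changes was not tested.

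**Figure D3:**
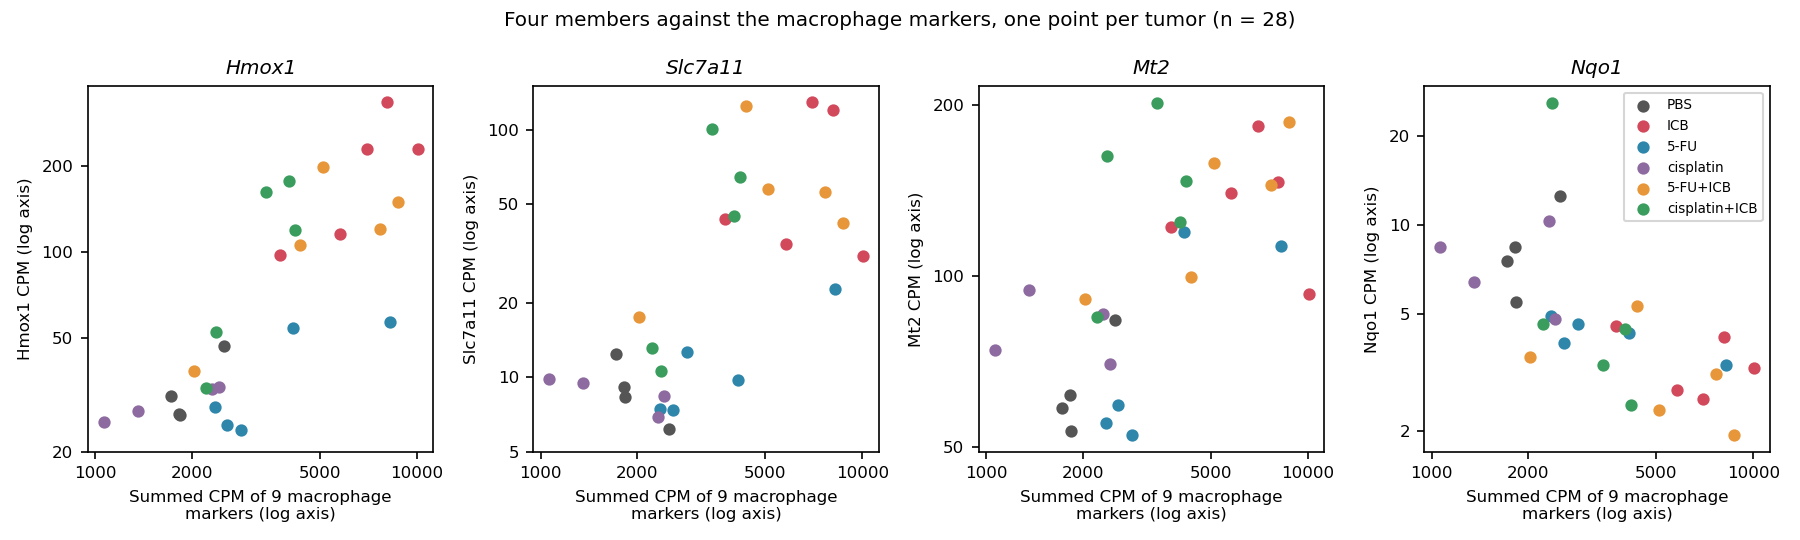
CPM of Hmox1, Slc7a11, Mt2 and Nqo1 (vertical log axes) against the summed CPM of 9 macrophage markers (horizontal log axis) in 28 tumors, colored by treatment. Hmox1 is higher and Nqo1 lower in tumors with more macrophage marker RNA (r = 0.86 and -0.72 over 28 tumors on the mean log2 marker level), and the Nqo1 panel holds cisplatin+ICB replicate 1 alone at its top.

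Chemotherapy alone was compared with PBS next. With 5-FU, 1 of 10 members was called, Nqo1, beside 23.0% of 17916 genes. Nqo1 measured 3.97, 4.60, 3.34, 4.89 and 4.30 CPM in the 5-FU tumors, all below the PBS tumors, as for 1 of 10 members and 27.0% of all genes. It fell by 1.02 on the log2 scale (SE 0.29, edgeR adjusted p = 0.019). The call was lost without PBS replicate 1 (adjusted p = 0.052) or PBS replicate 2 (0.103), the tumor with the highest Nqo1 among PBS, and also without a low-count filter (0.057) or with all 28 tumors in 1 fit (0.164). Fibroblast markers were higher in 5-FU tumors (13198 to 20873 summed CPM, against 4826 to 11887 in PBS, 4 of 6 called), as were 4 of 9 macrophage markers (2355 to 8230 CPM, against 1716 to 2512) and 5 of 6 T and NK cell markers (38.9 to 357 CPM, against 27.4 to 41.5). Msln measured 45.0 to 177 CPM, below the 271 to 358 CPM of PBS, and was not called, while 3 of the 6 markers tested in its list were positive and Wt1 was called higher. Endothelial markers summed to 133 to 305 CPM, against 69.5 to 130 CPM in PBS (2 of 5 called higher). Skeletal muscle markers summed to 9.99 to 1655 CPM (median 1295), against 106 to 187 CPM in PBS, with 1 of 7 called higher. Neutrophil markers summed to 15.3 to 65.4 CPM, against 9.32 to 18.6 CPM in PBS, with 1 of 6 tested called higher. The part of these cells in the lower Nqo1 was not tested. Hmox1 was at 24.9, 23.7, 56.8, 28.6 and 54.3 CPM and Slc7a11 at 7.40, 12.6, 22.8, 7.45 and 9.79 CPM after 5-FU. Replicate 3 was highest for both genes, and the groups overlapped (log2 fold changes 0.19 and 0.44, adjusted p = 0.762 and 0.555). Mt1 and Mt2 had opposite signs, -0.47 ± 0.30 and 0.32 ± 0.30, and neither was called.

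Cisplatin called 0 of 10 members by edgeR, and 0 of 17819 genes (0%), with 0 members at an unadjusted p under 0.05 (1.78% of genes) and 0 called by DESeq2. Cisplatin tumors measured 33.7, 25.3, 27.7 and 33.2 CPM of Hmox1, 8.37, 9.87, 9.49 and 6.93 CPM of Slc7a11 and 69.9, 74.0, 94.6 and 85.8 CPM of Mt2. These values overlapped the PBS tumors for every member but Gclc, the catalytic subunit, at 24.1 to 27.8 CPM against 28.8 to 37.5 CPM in PBS. Absence of overlap was seen for 3.44% of all genes in this comparison, and the log2 fold change of Gclc was -0.34 ± 0.17. Metallothionein values were close to PBS, with log2 fold changes of 0.12 ± 0.28 for Mt1 and 0.34 ± 0.25 for Mt2. All adjusted p were 1, so changes of this size could not be told from the spread between the 4 tumors of each group.

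Hmox1, Slc7a11 and Mt2 rose in both combinations, and Nqo1 fell in 5-FU+ICB. These comparisons and those above share the 4 PBS tumors, so they are not independent of each other. In 5-FU+ICB, 4 of 10 members were called, beside 40.7% of 17916 genes. Hmox1 measured 150, 38.3, 120, 198 and 106 CPM, and Slc7a11 41.9, 17.5, 56.1, 57.6 and 125 CPM. Replicate 2 was the lowest for both genes, and its Hmox1 lay inside the PBS range. Hmox1 rose 3.77-fold (log2 1.91 ± 0.46, edgeR adjusted p = 0.0037) and Slc7a11 6.84-fold (log2 2.77 ± 0.57, adjusted p = 0.0017). Mt2 measured 187, 91.0, 145, 158 and 99.9 CPM, above all PBS tumors (log2 1.10 ± 0.30, adjusted p = 0.00845). Nqo1 measured 1.94, 3.57, 3.12, 2.35 and 5.30 CPM, below all PBS tumors, and fell by 1.38 (SE 0.30, adjusted p = 0.0021). Groups did not overlap for 3 of 10 members, against 25.5% of all genes. Without replicate 5, the tumor low in Msln, these 4 genes were again called and Slc7a11, whose highest value it held, had a log2 fold change of 2.31. Srxn1 (0.36) and Mt1 (0.28) were not called. The macrophage marker sum was 2028 to 8717 CPM in this group, with 7 of 9 markers called higher, and was lowest in replicate 2. Ptprc, 5 of 6 T and NK cell markers, 4 of 5 B and plasma cell markers, 5 of 5 endothelial, 2 of 6 fibroblast, 2 of 6 neutrophil, 1 of 7 skeletal muscle and 1 of 5 adipocyte markers were also called higher. Of 6 mesothelial and mesothelioma markers tested, Msln was called lower and Wt1, Krt19 and Pdpn higher. Their part in the members' changes was not tested.

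In cisplatin+ICB, 3 of 10 members were called, beside 6.10% of 17819 genes. Hmox1 measured 52.4, 161, 33.3, 119 and 176 CPM and Slc7a11 10.6, 101, 13.1, 64.4 and 44.8 CPM. Replicates 1 and 3 were low for both genes, within or near the PBS range, and the other three were high. Hmox1 rose 3.32-fold (log2 1.73 ± 0.45, edgeR adjusted p = 0.033) and Slc7a11 5.24-fold (log2 2.39 ± 0.61, adjusted p = 0.032). Mt2 measured 163, 202, 84.7, 147 and 124 CPM, all above PBS (log2 1.18 ± 0.24, adjusted p = 0.016). Mt1 was at 181, 101, 56.3, 85.9 and 81.5 CPM and was not called (0.69 ± 0.27, adjusted p = 0.126). Only Mt2 did not overlap between groups, 1 of 10 members against 8.12% of all genes. None of these 3 calls was left without PBS replicate 1, 3 or 4 (Mt2 adjusted p 0.065 to 0.077) or with these 2 groups fitted alone. In each of those settings 0 of all genes were called. Mt2 alone of the members was called without cisplatin+ICB replicate 2, 4 or 5, beside 249, 266 and 361 of all genes. With every tumor 1087 genes were called, so the loss was not particular to the members. Slc7a11 was also not called without PBS replicate 2 (adjusted p = 0.072), and Mt1 was called without cisplatin+ICB replicate 3 (0.84, adjusted p = 0.043). The macrophage marker sum was 2218 to 4172 CPM, with 3 of 9 markers called higher, and was lowest in replicates 3 (2218 CPM) and 1 (2376 CPM). The neutrophil marker sum was 36.6 to 110 CPM, with 5 of 6 called higher. Ptprc measured 118 to 361 CPM, without overlap with PBS (log2 1.41, adjusted p = 0.024), and T and NK cell markers summed to 41.4 to 273 CPM, with 3 of 6 called higher. The part of these cells in the result was not tested.

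Nqo1 measured 26.0, 3.35, 4.60, 2.44 and 4.43 CPM in cisplatin+ICB. Replicate 1 held the highest Nqo1 of all 28 tumors, while the other four lay below every PBS tumor. With all 5 tumors the log2 fold change was -0.05 ± 0.55. Without replicate 1 it was -1.14 and called (edgeR adjusted p = 0.011), and Hmox1, Slc7a11 and Mt2 were again called (1.97, 2.73 and 1.19). In that setting 6277 of all genes were called, against 1087 with every tumor. Replicate 1 was also the lowest of all 28 tumors for Txnrd1 (76.3 CPM), Gsr (29.0 CPM) and Gclm (27.8 CPM) and the highest for Mt1. It had the highest sum of the other glutathione enzymes, 5884 CPM against 881 to 2344 CPM in all other tumors.

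By edgeR no member was called when a combination was compared with a single treatment, or 1 chemotherapy with the other, whereas DESeq2 called 1 to 3 members in 3 of these comparisons. DESeq2 also called more of all genes in those 3. It called 539 (edgeR 2) in 5-FU+ICB against 5-FU, 783 (edgeR 0) in cisplatin+ICB against cisplatin and 1620 (edgeR 55) in 5-FU+ICB against cisplatin+ICB. 5-FU+ICB against ICB called 0 of 10 members by edgeR (0.229% of genes), with 0 at an unadjusted p under 0.05 (10.9% of genes) and 0 by DESeq2. All 10 log2 fold changes were below 0, from -0.70 ± 0.41 for Hmox1 to -0.02 ± 0.28 for Mt2. Cisplatin+ICB against ICB called 0 of 10 (0% of genes), with 2 at an unadjusted p under 0.05 (15.9% of genes) and 0 by DESeq2. Those 2 were Hmox1 (-0.89 ± 0.41) and Nqo1 (1.23 ± 0.52). Without cisplatin+ICB replicate 1 the log2 fold changes were -0.67 for Hmox1 and 0.13 for Nqo1. These 2 comparisons share the 5 ICB tumors.

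Adding ICB to chemotherapy gave larger differences that missed the adjusted threshold in edgeR. In 5-FU+ICB against 5-FU, 0 of 10 members were called (0.0112% of genes), with 5 at an unadjusted p under 0.05 (16.6% of genes). DESeq2 called 2, Hmox1 and Slc7a11, beside 539 genes in all. The log2 fold changes of Hmox1 and Slc7a11 in edgeR were 1.72 ± 0.42 (adjusted p = 0.117) and 2.34 ± 0.51 (adjusted p = 0.102). Mt1 and Mt2 differed by 0.75 ± 0.29 and 0.78 ± 0.28 in the same comparison. Without 5-FU+ICB replicate 2, Hmox1, Slc7a11, Mt1 and Mt2 were all called, beside 1948 of all genes (2 with every tumor). Without 5-FU replicate 3, Hmox1 and Slc7a11 were called, beside 640 of all genes. The gain was therefore not particular to the members. In cisplatin+ICB against cisplatin, 0 of 10 were called (0% of genes), with 4 at an unadjusted p under 0.05 (14.2% of genes). DESeq2 called 3, Hmox1, Slc7a11 and Mt2, beside 783 genes in all. The edgeR values of Hmox1, Slc7a11 and Mt2 were 1.86 ± 0.45, 2.44 ± 0.61 and 0.84 ± 0.24 (adjusted p = 0.083, 0.087 and 0.121). Slc7a11 did not overlap between these groups, 1 of 10 members against 3.35% of all genes. All 3 genes were called without cisplatin+ICB replicate 1 or replicate 3, beside 2114 and 536 of all genes.

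5-FU against cisplatin called 0 of 10 members (0.362% of 18521 genes), with 0 at an unadjusted p under 0.05 (15.5% of genes) and 0 by DESeq2. The differences furthest from 0 were Nqo1 at -0.83 ± 0.48 and Mt1 at -0.59 ± 0.31. 5-FU+ICB against cisplatin+ICB also called 0 of 10 (0.297% of genes), with Nqo1 alone at an unadjusted p under 0.05 (25.7% of genes) and called by DESeq2 (1620 genes in all). Its edgeR log2 fold change was -1.32 ± 0.46 (adjusted p = 0.098), and without cisplatin+ICB replicate 1, the tumor with 26.0 CPM of Nqo1, it was -0.19 (adjusted p = 0.743). Whether the ICB effect differed with and without chemotherapy was tested as an interaction, and 0 of 10 members were called for 5-FU (0.0893% of genes) and for cisplatin (0% of genes), with 0 by DESeq2 in both. At an unadjusted p under 0.05 in edgeR stood 1 member for 5-FU (23.9% of genes) and 0 members for cisplatin (7.14% of genes). Nqo1 had the largest 5-FU interaction, 0.93 ± 0.41 (adjusted p = 0.171), and Hmox1 differed by -0.89 ± 0.60. Standard errors of the members' interactions reached 0.81, for Slc7a11 with cisplatin, so these values do not show that the effects were alike.

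The regulators of the members were read from the same fits. Bach1 rose 2.57-fold in ICB (28.9 ± 8.05 to 72.2 ± 12.1 CPM, SD, log2 1.36, edgeR adjusted p = 0.00056) and was also called higher with 5-FU (log2 0.98, adjusted p = 0.0088) and 5-FU+ICB (log2 1.19, adjusted p = 0.0013). Nfe2l2 rose from 124 ± 7.31 to 205 ± 31.2 CPM in ICB (log2 0.76, adjusted p = 0.0080) and was not called in 5-FU (0.20), 5-FU+ICB (0.50, adjusted p = 0.056), cisplatin (-0.04) or cisplatin+ICB (0.19). Keap1 (0.37, adjusted p = 0.0086) and Mtf1 (0.38, adjusted p = 0.014) passed the adjusted p in ICB and stayed under the fold threshold. Rbx1, a ligase subunit, fell by 0.68 in ICB (adjusted p = 0.0067). Of 12 regulators tested, 4 were called higher and 1 lower in ICB, a share near the 37.8% of all genes called. In cisplatin and cisplatin+ICB 0 of 12 were called by edgeR, beside 0% and 6.10% of all genes. At an unadjusted p under 0.05 stood 0 in cisplatin (1.78% of genes) and 1 in cisplatin+ICB.

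Other targets of NRF2, 30 tested genes from a fixed list, included genes called in both directions. In ICB against PBS, 11 were called higher and 7 lower, beside 37.8% of all genes called, with a median log2 fold change of 0.42 (all genes -0.03). The higher genes included Mgst1, a microsomal glutathione transferase (20.4 ± 8.60 to 98.5 ± 39.2 CPM, log2 2.27), Fth1, the ferritin heavy chain (1267 ± 85.3 to 5283 ± 2476 CPM, log2 2.08), and Gstm1 (12.3 ± 1.38 to 39.1 ± 18.4 CPM, log2 1.70), with edgeR adjusted p of 0.0025, 0.0012 and 0.0037. The lower genes included Gsto1 (log2 -0.99) and Gstp1 (log2 -0.81), which are also glutathione transferases, and malic enzyme Me1 (log2 -0.78), and these were chosen for naming after their values were seen. With 5-FU, 1 of 30 was called higher (Abcc4, an exporter, log2 0.77) and 5 lower, led by Gsto1 (log2 -1.15), beside 23.0% of all genes. With 5-FU+ICB 7 were higher and 2 lower, beside 40.7% of all genes. With cisplatin+ICB 1 was higher, Mgst1 (log2 1.64), beside 6.10% of all genes. Cisplatin alone called 0 of 30 by edgeR (0% of genes), with 1 at an unadjusted p under 0.05 (1.78% of genes).

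Counts for the neighbouring pathways in ICB against PBS stand beside 37.8% of all genes called, and nothing particular to a list is read from them. Of 18 other glutathione enzymes, 3 were called higher (Ggt5, Ggct and Glrx, log2 2.08, 1.57 and 1.30) and 4 lower. Of 12 genes in a list of thioredoxins, peroxiredoxins, sestrins and superoxide dismutases, 3 were higher and 4 lower. The higher ones were the superoxide dismutases Sod3 (1.93) and Sod2 (1.43) and the thioredoxin inhibitor Txnip, and the lower ones were led by the peroxiredoxin Prdx4 (-1.27). Of 15 haem and iron genes, 5 were higher and 2 lower. Slc11a1, an iron and manganese transporter of phagosomes, rose from 10.2 ± 1.49 to 189 ± 92.2 CPM (log2 4.23, edgeR adjusted p = 0.00045), and Cd163, the macrophage receptor for haemoglobin, rose by 2.34 on the log2 scale. Of 21 zinc and copper genes, 7 were higher and 1 lower. Slc30a1, the zinc exporter that MTF1 also controls, rose from 13.7 ± 3.25 to 41.5 ± 12.7 CPM (log2 1.63, adjusted p = 0.0035), beside Slc39a4 (2.39) and Slc31a2 (1.86). Of 10 glucocorticoid response genes, 4 were higher and 0 lower, including Per1 (1.68), Tsc22d3 (1.09) and Klf9 (0.88). Of 14 ATF4 targets, 1 was higher (Atf3, 2.93) and 4 lower, including Phgdh (-1.42) and Asns (-0.95). ATF4 also controls Slc7a11, which rose by 3.03, and its part in that rise was not tested.

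Across the 28 tumors the members did not vary as 1 set. Hmox1 correlated with Slc7a11 at r = 0.89, with Srxn1 at r = 0.84 and with Mt2 at r = 0.81. Gsr correlated with Txnrd1 at r = 0.85 and Gclm with Txnrd1 at r = 0.74, and Hmox1 was unrelated to Gsr (r = 0.05) and Txnrd1 (r = 0.02). Nqo1 was negatively correlated with Slc7a11 (r = -0.60) and Hmox1 (r = -0.53), and Mt1 with Gsr (r = -0.54). Mt1 and Mt2 correlated at r = 0.76. After subtracting group means, Hmox1 and Slc7a11 correlated at r = 0.67 and Gsr and Txnrd1 at r = 0.84. Without cisplatin+ICB replicate 1 and 5-FU+ICB replicate 5, the coefficients were 0.91 for Hmox1 with Slc7a11, 0.78 for Gsr with Txnrd1, -0.71 for Nqo1 with Slc7a11 and -0.32 for Mt1 with Gsr, and that of Nqo1 with Txnrd1 went from -0.34 to 0.06. Tumors share treatment, depth and cell content, so these coefficients are descriptions.

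**Figure D4:**
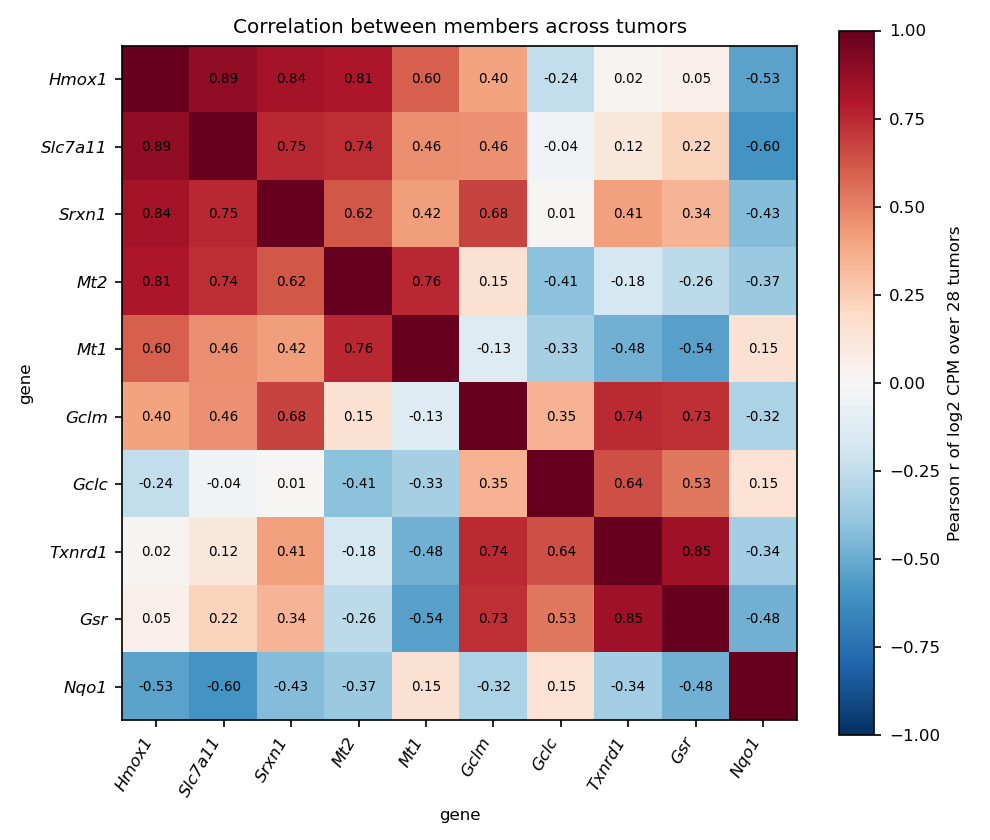
Pearson r of log2 CPM between each pair of members over 28 tumors, from blue (-1) to red (1), with genes on both axes. Hmox1, Slc7a11, Srxn1 and Mt2 have r from 0.62 to 0.89 among themselves and Gclm, Gclc, Txnrd1 and Gsr from 0.35 to 0.85, these sets are not separate (Gclm with Srxn1 is at 0.68), and Nqo1 is negative with most members.

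Among 13333 tested genes with a mean count of at least 50, the genes closest to each member were read by Pearson r over the 28 tumors. Hmox1 was closest to Fth1 (r = 0.96) and Ttc12 (r = 0.95), and Srxn1 to Fth1 (r = 0.86) and Pgd, an enzyme of the pentose phosphate pathway (r = 0.86). Slc7a11 was closest to Stac2 (r = 0.94) and Tnfaip2 (r = 0.94). Nqo1 was closest to Mgst3, another glutathione transferase (r = 0.96), and Thnsl1 (r = 0.94). Mt2 was closest to Tnfrsf9, the T cell costimulatory receptor 4-1BB (r = 0.90), and Tnip3 (r = 0.89), and Mt1 to the chemokine Ccl9 (r = 0.88) and Acot8 (r = 0.86). Gclc was closest to Mthfd1l (r = 0.82) and Aldh18a1 (r = 0.79), Gclm to Xkr8 (r = 0.76) and Txnrd1 (r = 0.74), Txnrd1 to Prep and Uba1 (r = 0.87 for both), and Gsr to Pik3cb and Msn (r = 0.90 for both). Without the same 2 tumors, r was 0.95 for Nqo1 with Mgst3, 0.96 for Hmox1 with Fth1 and 0.72 for Txnrd1 with Prep.

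The ratio of Mt2 to Mt1 was examined after their values had been seen and is a description without a test. It is a ratio of CPM without length correction, so its changes between tumors are read and not its size. In PBS it was 1.02, 1.02, 0.975 and 1.05, the narrowest range of the 6 groups. In 5-FU it was 1.57, 2.07, 1.77, 1.65 and 1.77, above every PBS tumor, although neither gene was called in that group. In ICB it was 1.76, 1.79, 1.08, 1.58 and 1.66, in cisplatin 1.43, 1.04, 1.21 and 1.13, in 5-FU+ICB 1.78, 2.46, 2.26, 1.96 and 1.07, and in cisplatin+ICB 0.901, 2.00, 1.5, 1.71 and 1.53. The ratio was near the PBS values in ICB replicate 3 and 5-FU+ICB replicate 5, the tumors with the highest skeletal muscle marker sums (3623 and 5314 CPM), but also in cisplatin replicate 2 (164 CPM) and cisplatin+ICB replicate 1 (72.7 CPM). Tumors with intermediate sums had ratios of 1.57 to 1.77 in 5-FU replicates 1, 3, 4 and 5 (1040 to 1655 CPM) and 2.26 in 5-FU+ICB replicate 3 (1023 CPM). The highest ratios of these groups, 2.07 in 5-FU and 2.46 in 5-FU+ICB, were both in replicate 2, which had the lowest sums of each group (9.99 and 4.25 CPM). The part of other tissue in the ratio was not tested.

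**Figure D5:**
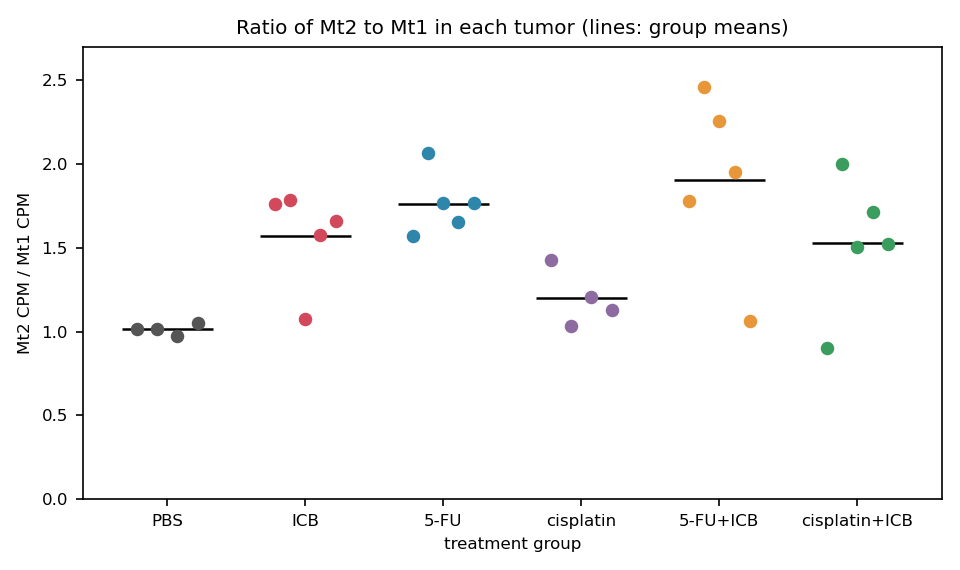
Ratio of Mt2 CPM to Mt1 CPM (vertical axis from 0) in each tumor by treatment group, with lines at group means. The 4 PBS tumors lie between 0.975 and 1.05 and the 5 tumors of the 5-FU group between 1.57 and 2.07, and 1 tumor in each of the ICB, 5-FU+ICB and cisplatin+ICB groups lies near or below the PBS tumors.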

How the data were processed

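Estimated counts per gene, deposited by the authors in 2 tables of unnormalized values, were used for 28 tumors. Per the labels and the study's methods, the authors demultiplexed reads with bcl2fastq 2.20.0.422, pseudo-aligned them with kallisto 0.46.0 to the mouse transcriptome (GRCm38) and summed transcripts to genes with tximport. Versions follow the submitters' processing notes. Of all values, 23.7% were not whole, and counts were rounded before testing. The 9 PBS and ICB tumors held identical values in both tables and were used once. Pseudo-alignment divides reads between genes that share sequence.

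Each table was fitted with edgeR 4.0.16 (quasi-likelihood F test, filterByExpr, TMM factors) in R 4.3.3, with 1 term per group and no other covariate. ICB against PBS came from the 5-FU table, and comparisons between the chemotherapies from all 28 tumors joined. Adjusted p-values are Benjamini-Hochberg over all genes of a fit, two-sided. Standard errors were taken as the fold change over the square root of F. A call needed an adjusted p under 0.05 and a log2 fold change beyond 0.5. CPM used TMM factors over all tumors, and log2 CPM a prior count of 2.

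Alternatives were DESeq2 1.42.0, other scalings, no low-count filter, no fold threshold, other sets of tumors in the fit, the replicate number as a block and each tumor left out. The edgeR script was tested on simulated data. Named genes were the members, Nfe2l2, Keap1, Bach1 and Mtf1, up to 3 called genes per list and comparison with the largest change and a mean count of at least 50, and the 2 closest genes per member. The members and lists were chosen with earlier results of these data known. Promoters are descriptions, and genes beyond this rule were chosen after their values were seen. Correlations without the tumors that stood apart were added after the data were seen.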

Additional observations from a re-analysis of the deposited data

Results flagged for a closer look

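Nqo1 measured 26.0 CPM in cisplatin+ICB replicate 1, against 2.44 to 4.60 CPM in the other 4 tumors of that group. The gap to the nearest tumor was 0.909 of the group's range, above Dixon's critical value of 0.71 for 5 samples. Gclm measured 71.3 CPM in ICB replicate 5, against 34.8 to 44.9 CPM in the other ICB tumors, and the gap was 0.724 of the range. These were 2 of 60 sets of a member and a group examined, and chance alone would give about 1 in 20. None of the 20 interactions of a member with chemotherapy was called by edgeR.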

How the results depend on the processing

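No member's called change turned direction under any alternative run. In ICB against PBS the count of called members was 5, and 6 with the compared groups only (Mt1 added). In ICB against PBS it was 3 in the cisplatin count table (Hmox1, Slc7a11 and Mt2), and 4 to 5 with each tumor left out. In 5-FU against PBS it was 1, and 0 without a low-count filter or with all 28 tumors in one fit, and 0 to 1 with each tumor left out. In cisplatin+ICB against PBS it was 3, and 0 with the compared groups only, and 0 to 4 with each tumor left out. Over all genes, 0 were called with the compared groups only and 0 to 6277 with each tumor left out. Without cisplatin+ICB replicate 1, 6277 genes were called in all, against 1087 with it. With DESeq2 the count of called members was 2 in place of 0 in 5-FU+ICB against 5-FU (539 genes in all). It was 3 in place of 0 in cisplatin+ICB against cisplatin (783 genes) and 1 in place of 0 in 5-FU+ICB against cisplatin+ICB (1620 genes). Left-out tumors gave 0 to 4 called members in 5-FU+ICB against 5-FU and 0 to 3 in cisplatin+ICB against cisplatin. The counts over all genes reached 1948 and 2114 there. The cause of these differences in count was not tested.

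The replicate numbers were checked as pairs. Tumors with the same number had a median correlation of deviations of -0.02 over 27 pairs (8 over 0.1) in the 5-FU table and -0.09 over 25 pairs (7 over 0.1) in the cisplatin table, so the numbers did not pair the tumors. With the replicate block 1 member, Mt2, was called in cisplatin+ICB against PBS in place of 3, and 4 in place of 5 in ICB against PBS. Over all genes the block gave 95 calls in place of 1087, and 6046 in place of 6771.

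Scaling by library totals moved the median log2 fold change of all genes from -0.01 to 0.11 in 5-FU against PBS, from -0.01 to 0.13 in cisplatin against PBS, from 0.02 to -0.15 in 5-FU+ICB against 5-FU, from 0.06 to -0.06 in cisplatin+ICB against cisplatin and from 0.03 to -0.14 in the 5-FU interaction, and changed no call of a member. Depth, at 23541733 counts or more, left the lowest member, Nqo1, at 52 counts or more, and each group held 4 or 5 tumors.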
